A study of Mus musculus with 12 samples.

Results

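Mir-199 and Mir-214 are microRNA families known from mesenchymal cells, the connective tissue, fibroblast and smooth muscle lineages. They were followed here in small RNA libraries from the hippocampus of 12 male wild-type C57BL/6J mice. The members were taken by name, as every row of the deposited table whose first name is Mir-199 or Mir-214. There were 5 such rows among 513 rows of miRNA arms. The 2 families themselves were chosen with earlier results of these data known. The exercised lineage comprised 6 mice of the F2 generation whose F0 grandfathers in the male line had exercised, and the sedentary lineage comprised 6 F2 mice whose grandfathers were sedentary. No exercise or other treatment of the F2 mice themselves is named in the labels. Submitter codes group the libraries by a shared stem into 4 sets of 3. R31 and R41 belong to the exercised lineage, S11 and S41 to the sedentary. The meaning of the stem is not given in the labels. Should it mark a family, mice that share one would not be independent. Libraries held 6862623 to 10219856 reads on miRNA arms. Levels are given as normalized counts, for which each library's reads were divided by its own size factor.

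An miRNA gene is transcribed as a longer RNA that folds into a hairpin, from which a 5p and a 3p arm of about equal length are released. One or both arms are loaded into Argonaute and guide it to messenger RNAs that pair with the seed, bases 2 to 8 of the arm. The rows follow MirGeneDB names, which number paralogues with P and mark with an asterisk the arm regarded as the passenger. Mir-199 and Mir-214 share a noncoding host transcript, Dnm3os, which is needed for normal skeletal development in the mouse and is activated by the transcription factor Twist1. Among their known targets are Mtor for the 3p arm of Mir-199, Hif1a and Cav1 for its 5p arm, and Ezh2 for the 3p arm of Mir-214.

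The mouse genome holds 3 Mir-199 genes and 1 Mir-214 gene in the GENCODE annotation of mm10. Mir199a-2 (chromosome 1, 162217814 to 162217923, plus strand) and Mir214 (chromosome 1, 162223368 to 162223477, plus strand) lie 5444 bases apart, both in exonic sequence of Dnm3os and both opposite an intron of Dnm3. Mir199a-1 lies on chromosome 9 (21496495 to 21496564, minus strand) opposite an intron of Dnm2. Mir199b lies on chromosome 2 (32318460 to 32318569, plus strand) opposite an intron of Dnm1. Each Mir-199 gene is therefore antisense to a gene of the dynamin family, whose products pinch off membrane vesicles. The hairpins are shown because they say which arms a read can tell apart. They come from RefSeq (GRCm38.p6), which held all 4 hairpins, and capitals mark the mature arms listed there.
Mir199a-1: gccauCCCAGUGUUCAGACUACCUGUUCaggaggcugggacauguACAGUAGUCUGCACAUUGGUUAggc
Mir199a-2: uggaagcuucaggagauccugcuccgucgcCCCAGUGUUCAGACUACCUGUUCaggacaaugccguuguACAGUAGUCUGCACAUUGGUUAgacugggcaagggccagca
Mir199b: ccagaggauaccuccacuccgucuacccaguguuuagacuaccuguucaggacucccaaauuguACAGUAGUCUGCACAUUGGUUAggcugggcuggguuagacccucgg
Mir214: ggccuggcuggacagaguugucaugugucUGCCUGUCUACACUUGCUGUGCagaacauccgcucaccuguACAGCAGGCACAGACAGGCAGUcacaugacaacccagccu

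The mature sequences are given next, with the seed in capitals, since the seed sets which messenger RNAs an arm can pair with.
mmu-miR-199a-3p: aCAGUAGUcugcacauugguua
mmu-miR-199a-5p: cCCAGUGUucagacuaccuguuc
mmu-miR-214-3p: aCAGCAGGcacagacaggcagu
mmu-miR-214-5p: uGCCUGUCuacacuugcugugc
The 4 seeds differ from one another, so neither the arms of a hairpin nor the neighbouring genes share a seed. The 3p sequence is the same in all 3 Mir-199 genes. In RefSeq its seed occurs in no mouse miRNA of another name than miR-199a-3p and miR-199b-3p. That of miR-214-3p occurs also in miR-761, for which the table has 0 rows.

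The 5p arms of the Mir-199 genes can be told apart by 1 base. The stretch of the Mir199b hairpin that lines up with miR-199a-5p lies at chr2:32318485-32318507 on the plus strand and differs by C10U, counted from 1 at the 5′ end, shown in capitals below and outside the seed.
miR-199a-5p: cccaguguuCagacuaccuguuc
Mir199b: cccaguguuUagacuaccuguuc
The table has 1 row for the 3p arm of all 3 Mir-199 genes, 1 row for the 5p arm shared by Mir-199-P1 and Mir-199-P2, and 1 row for the 5p arm of Mir-199-P3. By this pattern P1 and P2 are the Mir199a pair and P3 is Mir199b, although the table pairs its rows with no sequence and does not say which of P1 and P2 is Mir199a-1. How many mismatches the read mapping allowed is not given in the sources used here, so reads may have passed between the 5p rows. Mir-214 has a row for each arm, and the table marks its 5p arm and both Mir-199 5p rows as passengers.

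All 5 rows were detected, at low to moderate levels. The arm shared by the 3 Mir-199 genes, Mir-199 3p, was the most abundant, at rank 207 of 513 rows by its mean of 515 normalized counts over the 12 libraries. Mir-199-P1/P2 5p followed at rank 258 with 246, Mir-199-P3 5p at rank 391 with 33.2, Mir-214 5p at rank 403 with 28.5 and Mir-214 3p at rank 458 with 12.8. With the smallest step between values taken as 1 read, these levels stood for 334 to 670 reads per library for Mir-199 3p and for 17 to 56 reads for Mir-199-P3 5p. For Mir-214 3p they stood for 0 to 24 reads. Within this order the ranges of Mir-199-P3 5p, Mir-214 5p and Mir-214 3p over the libraries overlapped, and the other rows stood above them. All 5 rows had a mean of at least 10 and entered the test, Mir-214 3p only just. Together they made up 0.0103% ± 0.00239 of all normalized counts in exercised-lineage mice and 0.00983% ± 0.00147 in sedentary-lineage mice (SD, n = 6 each). The difference of 0.000450 percentage points was smaller than the spread between mice (exact two-sided permutation p = 0.686). Without the 4 libraries that hold a value of 0, which leaves 2 exercised-lineage and 6 sedentary-lineage mice, it was 0.00232 (exact two-sided permutation p = 0.143).

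**Figure D1:**
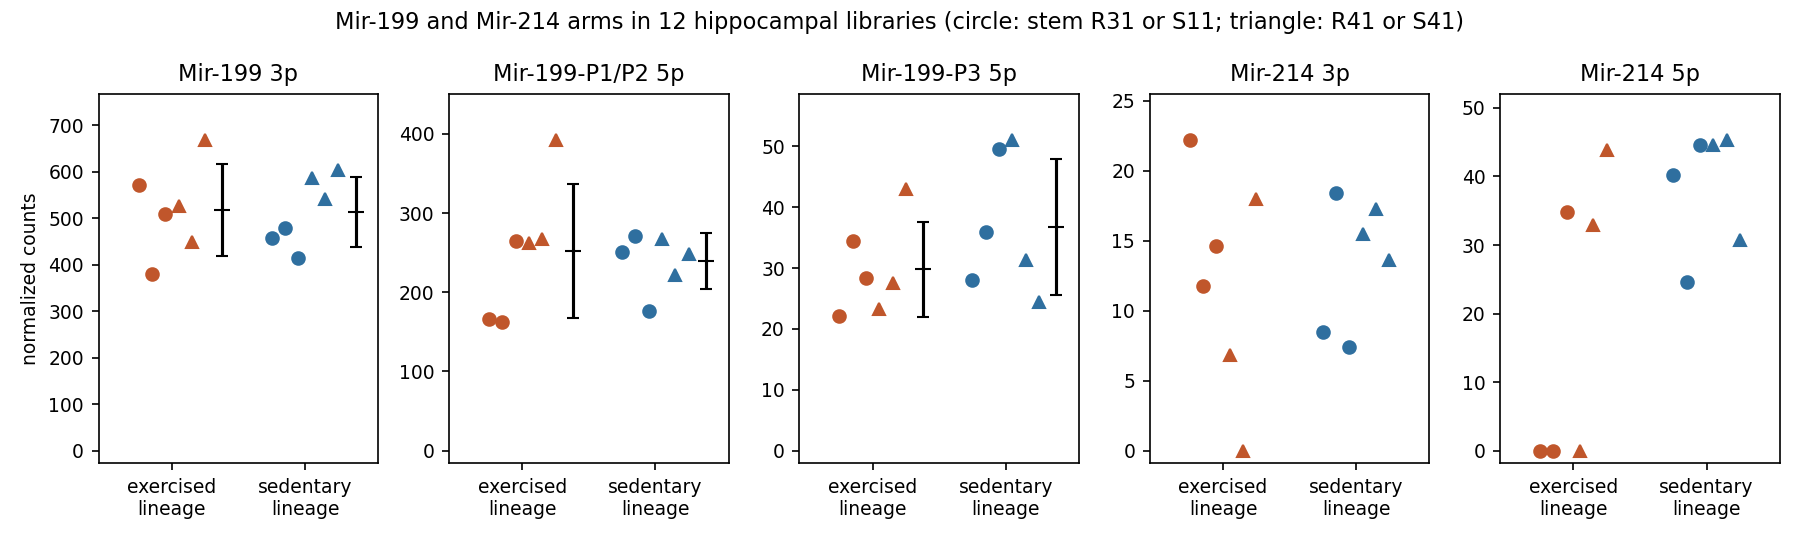
Normalized counts of each Mir-199 and Mir-214 row per library, by lineage (points: 1 mouse each, circles for stems R31 and S11, triangles for R41 and S41; black bars: mean ± SD of 6, omitted for the Mir-214 rows, which hold values of 0). The lineages overlap in all 5 rows, and the values of 0 stand in the exercised lineage.

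Mir-199 3p, the arm known to repress Mtor, was at the same level in both lineages. It ran from 381 over a median of 518 to 668 normalized counts in the exercised lineage, against 414, 509 and 603 in the sedentary lineage. The exercised range enclosed the sedentary one, with replicate 2 at the bottom and replicate 6 at the top of it. Means were 517 ± 99.3 in exercised-lineage mice and 513 ± 75.2 in sedentary-lineage mice (SD, n = 6 each). The log2 difference, exercised minus sedentary lineage on log2(value + 1), was 0.00 (SE 0.14, 95% confidence interval -0.30 to 0.30, limma with Benjamini-Hochberg adjusted p = 0.996 over 474 arms). This interval leaves room for a difference of up to 0.30 log2 in either direction.

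Mir-199-P1/P2 5p, the 5p arm of the Mir199a pair, varied more between mice. Its lowest, median and highest values were 162, 263 and 392 normalized counts in the exercised lineage, against 176, 250 and 271 in the sedentary lineage. Replicates 1 and 2 of the exercised lineage were the lowest of all 12 libraries and replicate 6 the highest, so that the sedentary-lineage mice lay inside the exercised range. Means were 252 ± 84.5 in exercised-lineage mice and 239 ± 35.4 in sedentary-lineage mice (SD, n = 6 each), a log2 difference of 0.03 (SE 0.20, 95% confidence interval -0.41 to 0.46, limma adjusted p = 0.979). The value moved when the libraries of 1 stem were left out. Without the R31 libraries it was 0.35 (95% confidence interval -0.04 to 0.74, limma adjusted p = 0.456). Without the R41 libraries it was -0.30 (95% confidence interval -0.73 to 0.13, limma adjusted p = 0.573). Both intervals hold 0, and an effect of the stem was not tested.

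Mir-199-P3 5p, the 5p arm of Mir199b, was several times less abundant. It ran from 22.2 over 28.0 to 42.9 normalized counts in the exercised lineage, against 24.5, 33.6 and 51.0 in the sedentary lineage. The ranges overlapped over most of their length, and 4 of 6 exercised-lineage mice lay below the sedentary median. Means were 29.8 ± 7.77 in exercised-lineage mice and 36.7 ± 11.2 in sedentary-lineage mice (SD, n = 6 each), a log2 difference of -0.28 (SE 0.23, 95% confidence interval -0.78 to 0.23, limma adjusted p = 0.648). With any 1 library left out the difference lay between -0.39 and -0.17.

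The rows of Mir-214 held the only values of 0 among the members. Mir-214 5p was listed at 0, 0, 34.8, 0, 32.9 and 43.9 normalized counts in exercised replicates 1 to 6, against 40.2, 24.6, 44.6, 44.6, 45.3 and 30.8 in sedentary replicates 1 to 6. Exercised-lineage mice thus stood either at 0 or inside the sedentary range, and none lay between 0 and 32.9. From the mean of the other 11 libraries, 33.6, 36.9 and 22.8 reads were expected in exercised replicates 1, 2 and 4 at their depth. Where the arm was above 0, its mean was 37.2 ± 5.88 in 3 exercised-lineage mice and 38.4 ± 8.67 in 6 sedentary-lineage mice (SD).

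Mir-214 3p, the arm known to repress Ezh2, was listed at 22.2, 11.8, 14.6, 6.83, 0 and 18.0 normalized counts in exercised replicates 1 to 6, against 8.52, 18.4, 7.44, 15.5, 17.3 and 13.6 in sedentary replicates 1 to 6. Its 1 value of 0 fell in exercised replicate 5, where Mir-214 5p stood at 32.9. In none of the 12 libraries were both arms at 0, so the hairpin was detected in every mouse. In the 8 libraries with both arms above 0, the 5p arm, which the table marks as the passenger, was above the 3p arm each time. The ratio of 3p to 5p there was 0.409 and 0.419 in 2 exercised-lineage mice, against 0.167 to 0.750 with a median of 0.364 in 6 sedentary-lineage mice. How efficiently each arm was captured in the libraries was not measured, so a ratio between arms is a ratio of reads.

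**Figure D2:**
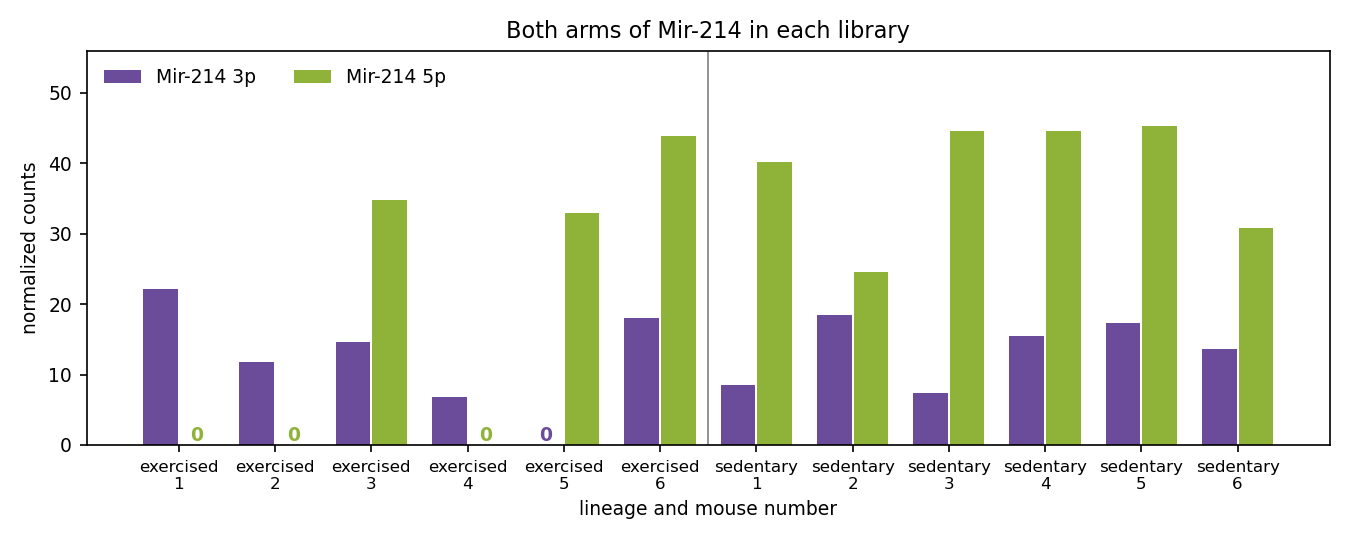
Normalized counts of the 3p arm (left bar) and the 5p arm (right bar) of Mir-214 in each library, exercised-lineage mice 1 to 6 and then sedentary-lineage mice 1 to 6, with values of 0 written out. The 5p arm is at 0 in exercised-lineage mice 1, 2 and 4 and the 3p arm in exercised-lineage mouse 5, and no library has both at 0.

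Such values of 0 were not particular to Mir-214. The 474 tested arms gave 5688 values, of which 63, in 35 arms, were 0. For 56 of them, 10 or more reads were expected from the other 11 libraries, 27 in libraries of the exercised lineage and 29 in those of the sedentary. The 4 values of 0 of Mir-214 are among these, all in the exercised lineage. How many other arms were as one-sided is not given here. Each library had 3 to 9 tested arms at 0, in the exercised as in the sedentary lineage. Of 175 hairpins with both arms tested, 1 arm was at 0 in 38 cases of a hairpin in a library, and both were at 0 in 0 cases. Arms at 0 in 3 or more libraries numbered 9. For this reason values of 0 are described only as listed, and their source was not tested.

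The lineage difference of Mir-214 5p depended on its values of 0. On log2(value + 1), the difference over all 12 libraries was -2.64 (SE 1.05, 95% confidence interval -4.90 to -0.38), the lowest among the 474 arms. Its unadjusted limma p was 0.0253 and its adjusted p 0.532, so it was not called. With the values of 0 treated as missing, a fit that drops exercised replicates 1, 2 and 4 for this arm, the difference was -0.02 (95% confidence interval -0.55 to 0.51, limma adjusted p = 0.989). The size of -2.64 also follows from the pseudocount, with -3.13 at a pseudocount of 0.5 and -1.56 at 5. The next lowest differences of the table, chosen after their values were seen, were -1.94 for Mir-1955_3p*, -1.54 for Mir-193-P2a_5p* and -1.34 for Mir-491_3p*, in arms listed at 0 in 5, 3 and 2 libraries.

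Mir-214 3p had a log2 difference of -0.55 (SE 0.67, 95% confidence interval -1.99 to 0.88, limma adjusted p = 0.780). Its direction rested on exercised replicate 5. With the value of 0 treated as missing, which drops that library, the difference was 0.09 (95% confidence interval -0.61 to 0.79, limma adjusted p = 0.959).

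**Figure D3:**
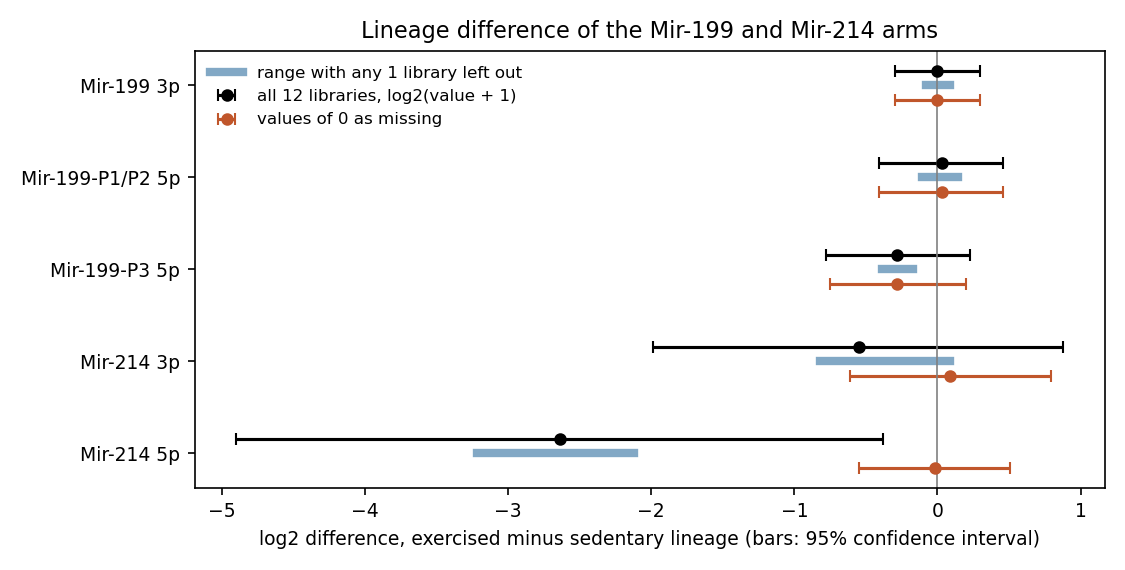
Log2 difference of each row, exercised minus sedentary lineage (black: all 12 libraries; orange: values of 0 as missing; points with 95% confidence intervals from limma; blue: range with any 1 library left out). Mir-199 3p and Mir-199-P1/P2 5p lie at 0.00 and 0.03, Mir-199-P3 5p lies at -0.28, and Mir-214 5p moves from -2.64 to -0.02 when the values of 0 are missing.

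Within the whole table, none of the 5 rows was called by limma at an adjusted p below 0.05, as for 0.00% of the 474 arms. At an unadjusted p below 0.05 there was 1 of the 5 rows, Mir-214 5p, against 34 arms or 7.17% of the table, and 17 arms or 3.59% with a lower value in the exercised lineage. The median log2 difference of all tested arms was -0.00, with 236 above 0 and 238 below. Scaling to library totals or to the upper quartile moved the median of all arms by 0.09 and 0.08 log2, and the number of arms above and below 0 was then 309 and 166, or 303 and 172. Mir-199 3p moved with it to 0.09 under each.

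A ratio within a library compares arms that share its size factor. Log2 ratios were taken of normalized counts plus 1, so those with an arm at 0 still depend on the scaling and the pseudocount. The ratio of Mir-199 3p to the summed 5p rows was 1.52 to 3.04 with a median of 1.79 in exercised-lineage mice, against 1.56 to 2.21 with a median of 1.84 in sedentary-lineage mice, so the 3p arm led in all 12 mice. Its log2 value averaged 0.91 ± 0.37 in exercised-lineage mice and 0.89 ± 0.20 in sedentary-lineage mice (SD, n = 6 each), a difference of 0.02 (exact two-sided permutation p = 0.944, 0.944 adjusted over 4 ratios). Exercised replicate 1, with 571 normalized counts of the 3p arm and 166 of Mir-199-P1/P2 5p, had the highest ratio, and without it the difference was -0.12.

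The 5p arm of the Mir199a pair exceeded that of Mir199b in every library. Their ratio was 4.68 to 11.3 with a median of 9.24 in exercised-lineage mice, against 3.55 to 10.1 with a median of 7.31 in sedentary-lineage mice. The log2 ratio averaged 3.01 ± 0.44 in exercised-lineage mice and 2.71 ± 0.54 in sedentary-lineage mice (SD, n = 6 each), a difference of 0.30 that did not pass (exact two-sided permutation p = 0.312, adjusted p = 0.416). Sedentary replicate 3 had the lowest ratio, and without it the difference was 0.12.

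Summed Mir-214 was far below summed Mir-199 in every mouse. The Mir-199 sum pools 3 genes, of which only Mir199a-2 lies in the same host transcript as Mir214. How efficiently each arm was captured was not measured, so this too is a ratio of reads. The summed Mir-214 rows stood at 0.00842 to 0.0615 of the summed Mir-199 rows in the exercised lineage, with a median of 0.0368, and at 0.0507 to 0.0814 in the sedentary lineage, with a median of 0.0663. The log2 ratio differed by -1.06 between the lineages (exact two-sided permutation p = 0.0173, adjusted p = 0.0693 over 4 ratios). Without exercised replicate 3, 5 or 6 the adjusted p was 0.0260, 0.0346 or 0.0260, with differences of -1.26, -1.16 and -1.23. Replicates 3 and 6 are the exercised-lineage mice with both Mir-214 arms above 0, so leaving 1 out raises the share of mice with a 0. With any other single library left out, the adjusted permutation p was 0.0779 to 0.199. Without the S11 or the S41 libraries the difference was -1.03 or -1.09 (adjusted permutation p = 0.571 or 0.460). Without the R31 or the R41 libraries it was -1.19 or -0.93 (adjusted permutation p = 0.143 or 0.0714). Each of these leaves 3 mice in 1 lineage, and with fewer assignments a small p is harder to reach. Leaving out the 4 libraries with a Mir-214 arm at 0, which leaves 2 exercised and 6 sedentary-lineage mice, the difference was -0.16 (exact two-sided permutation p = 0.536, adjusted p = 0.905). The ratio of Mir-214 3p to 5p, which the values of 0 also enter, ran from -5.08 to 4.54 log2 in exercised-lineage mice and from -2.43 to -0.40 in sedentary-lineage mice, and the difference of 2.09, or 2.42 with a pseudocount of 0.5, did not pass (exact two-sided permutation p = 0.160, adjusted p = 0.320). It was 3.23 without exercised replicate 5, the 1 library with the 3p arm at 0 (adjusted p = 0.0346), which keeps the 3 ratios made with a 5p arm at 0. In the 8 libraries with both arms above 0 it was 0.26 (exact two-sided permutation p = 0.679, adjusted p = 0.905), and without the R31 libraries 0.36 (adjusted p = 0.762).

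**Figure D4:**
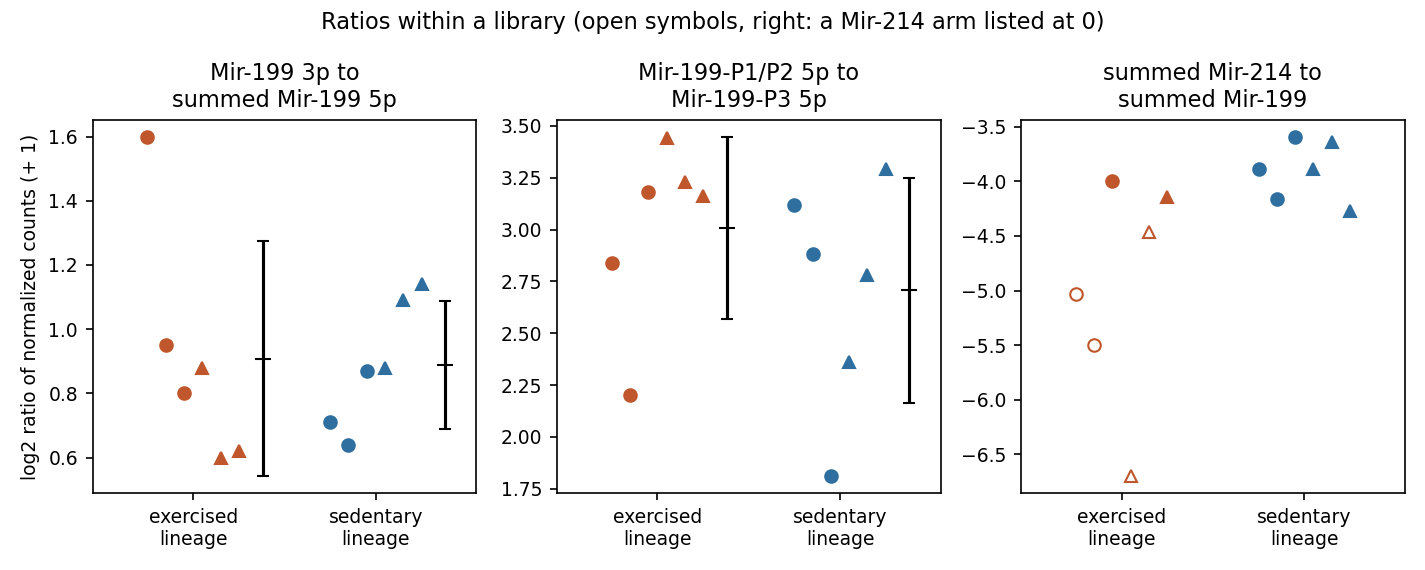
Log2 ratios of normalized counts (plus 1) within each library, by lineage (circles: stems R31 and S11; triangles: R41 and S41; black bars: mean ± SD of 6, omitted on the right; open symbols: a Mir-214 arm listed at 0). On the right, the exercised-lineage mice below the sedentary range of -4.27 to -3.59 are the 4 with an arm at 0.

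The spread between mice was larger than counting would give. The coefficient of variation over the 12 libraries was 16.3% for Mir-199 3p, where the number of reads alone would give 4.36%, and 25.3% for Mir-199-P1/P2 5p, against 6.34%. Over the 474 tested arms the median was 20.0%, a lower quartile of 14.3% and an upper quartile of 33.9%. Mir-199-P3 5p reached 29.7%, against 17.2% from counting. Mir-214 3p and 5p, with their values of 0, reached 48.4% and 64.3%. PCR copies were not told apart from separate molecules, so the counting figures are lower limits.

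Ranges by submitter stem are given for the Mir-199 rows with the most reads. In the sedentary lineage, Mir-199 3p ran from 541 to 603 normalized counts in the 3 libraries of S41. Those of S11 ran from 414 to 478. In the exercised lineage the R41 libraries ran from 448 to 668 and those of R31 from 381 to 571. Stems were not tested against each other. The share of all tested arms whose ranges lie apart between stems was not computed, so nothing particular to Mir-199 3p is read from these ranges. For Mir-199-P1/P2 5p the R41 libraries ran from 262 to 392 and the R31 libraries from 162 to 265, against 222 to 267 in S41 and 176 to 271 in S11. Each stem lies within 1 lineage, with 2 stems in each, and the lineages were not tested over stem means.

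Levels of the Mir-199 rows were only loosely tied to one another across mice. Over the 12 libraries, Mir-199 3p and Mir-199-P1/P2 5p had a Pearson r of 0.58 (permutation p = 0.0505, 0.202 adjusted over 4 relations) and a Spearman rho of 0.31 (permutation p = 0.320, adjusted p = 0.541). Without exercised replicates 2 and 6, the libraries farthest from the median, r was 0.07. Leaving out the most extreme libraries narrows the range, which by itself can lower r. Mir-199-P3 5p followed neither, with r of -0.08 against Mir-199 3p (permutation p = 0.811, adjusted p = 0.811; rho -0.08, permutation p = 0.805, adjusted p = 0.805; r = -0.29 without the same libraries). Against Mir-199-P1/P2 5p its r was 0.14 (permutation p = 0.670, adjusted p = 0.811; rho 0.27, permutation p = 0.405, adjusted p = 0.541; r = -0.04 without exercised replicates 1 and 2). Summed Mir-199 and summed Mir-214 had r of 0.41 (permutation p = 0.196, adjusted p = 0.392; rho 0.38, permutation p = 0.226, adjusted p = 0.541; r = -0.03 without exercised replicates 2 and 6). No relation passed.

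The label mesenchymal was set against marker families of the vessel wall and other tissues. Mir-143 and Mir-145, known from smooth muscle and mural cells, had 4 rows that summed to 225290 to 575934 normalized counts in exercised-lineage mice and 246034 to 617117 in sedentary-lineage mice, on average 454 times the sum of the 5 Mir-199 and Mir-214 rows. The endothelial Mir-126 rows averaged 125 times that sum. The listed connective tissue families, among them Mir-140 of cartilage and Mir-21, averaged 284 times that sum. Most of their own mean sum of 237329 normalized counts came from Mir-21_5p, at 171904, and Mir-22-P1a_3p, at 39698. Mir-21 and Mir-22 are also found in brain cells. The Mir-199 and Mir-214 sum was close to that of the erythroid families Mir-144, Mir-451 and Mir-486, which averaged 0.952 times as much, and below the leukocyte and microglial families at 2.34 times. In whole tissue, fewer cells of a type and less RNA per cell cannot be told apart. None of the rows in the 10 marker classes was called by limma, as for 0.00% of all arms. Of the 4 rows of Mir-143 and Mir-145, 0 had a log2 difference above 0 and 4 below, with a median of -0.19. The connective tissue list had 4 of 10 above 0 and 6 below, with a median of -0.03, beside -0.00 over all arms tested. The names Mir-152, Mir-10-P1c and Mir-10-P1d, also on that list, and Mir-449 of the choroid plexus list matched 0 rows. The connective tissue list takes Mir-148-P3, which has rows, as the alternative to Mir-152. Matching was by name only, so a name without a row does not show that the miRNA is absent. Whether rows under other names hold these miRNAs was not examined. Median log2 differences of the other classes lay between -0.27 for the 5 erythroid rows, 4 of them below 0, and 0.11 for the 14 neuronal rows, 10 of them above 0, and for the 2 endothelial rows.

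The 3 Mir-199 rows were only loosely tied to one another, with Pearson r of 0.58, -0.08 and 0.14 between pairs. Their profile across mice is their mean standardized log2 level, which need not describe any single row. By Pearson r over the 12 libraries the 8 closest of 469 other tested rows were Mir-133 3p (r = 0.74), Mir-186_3p* (0.73), Mir-143_3p (0.69), Mir-542_3p (0.68), Mir-148-P3_3p (0.67), Mir-145_3p* (0.66), Mir-23-P1_3p (0.66) and Mir-126 3p (0.66). Mir-133 is a heart and skeletal muscle miRNA, Mir-143 and Mir-145 mark smooth muscle and mural cells, and Mir-126 marks endothelium. Other rows of the same lists were less like the profile, with r of 0.34 for Mir-126 5p, 0.20 for Mir-1-P3 and 0.03 for Mir-499. On the connective tissue list, r ran from -0.47 for Mir-22-P1a_5p* to 0.67 for Mir-148-P3_3p. The median over the 469 rows was 0.03, and the upper 5% began at 0.52. These rows were picked for their likeness, they share library and scaling, and no p is given. Exercised replicate 6 and sedentary replicate 4 had the profiles farthest from the median, both above it. Without them r was 0.38 for Mir-133, 0.62 for Mir-186_3p*, 0.37 for Mir-143_3p and 0.63 for Mir-542_3p. It was 0.82 for Mir-148-P3_3p, 0.69 for Mir-145_3p*, 0.56 for Mir-23-P1_3p and 0.61 for Mir-126 3p. None of the 8 was called between the lineages, with log2 differences from -0.40 for Mir-186_3p* to 0.11 for Mir-23-P1_3p.

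By class, the summed level had r of 0.71 with this profile for endothelium and 0.69 for smooth muscle and mural cells. Most of each sum was 1 row. Mir-143_3p averaged 377051 of 379018 normalized counts of the mural sum, and its own r was 0.37 without exercised replicate 6 and sedentary replicate 4. Mir-126 3p averaged 96274 of 104161 of the endothelial sum. For the summed level r was 0.41 for the connective tissue list, 0.57 for leukocytes and microglia and 0.50 for heart and skeletal muscle. Oligodendrocyte families stood at 0.33, erythroid ones at 0.17, neuronal ones at 0.02 and epithelial ones at -0.15. Choroid plexus and ependymal families stood at -0.33. The part of vessel content in the spread of the Mir-199 rows was not tested.

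**Figure D5:**
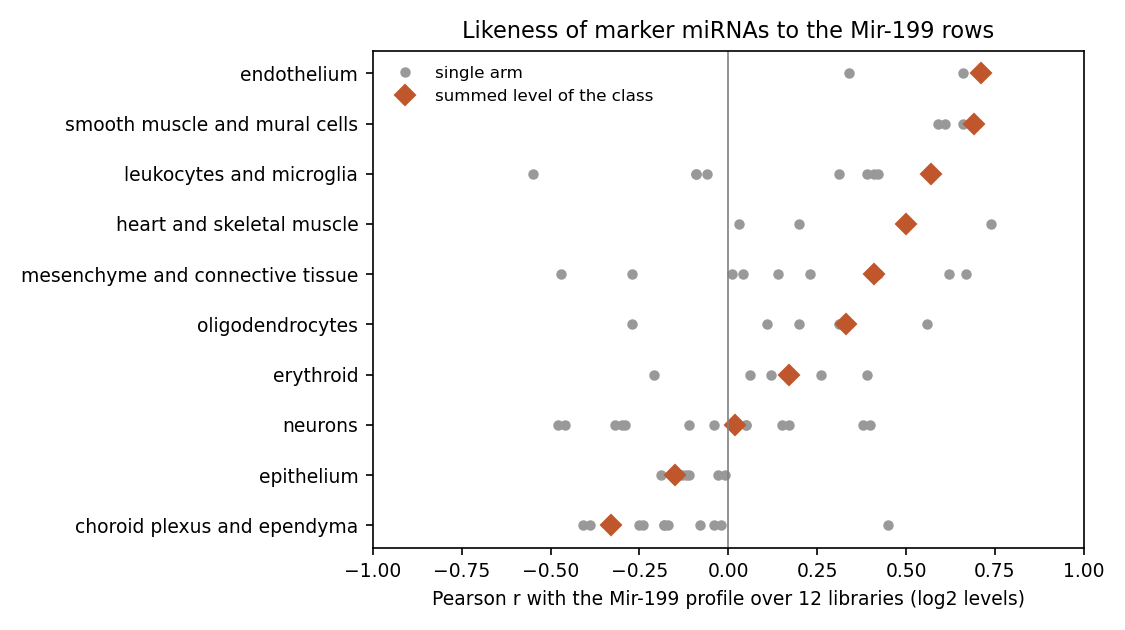
Pearson r over the 12 libraries between the mean profile of the 3 Mir-199 rows and marker miRNAs (diamonds: summed level of a class; grey points: its single rows). The classes of the vessel wall lie furthest to the right, at 0.71 and 0.69, each made up mostly of 1 row, and the choroid plexus class furthest to the left, at -0.33.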

How the data were processed

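Small RNA of 12 hippocampi was sequenced from NEBNext libraries, per the labels' protocols. The deposited values are a signal, with each library's reads per miRNA arm scaled by its own size factor. Bowtie 1.3.0, mm10 and DESeq2 are named per the submitters' processing notes. For mismatches, multiple matches and row filter the settings are not stated there. Every value was a whole multiple of 1 step per library (100% within 0.01), but the smallest positive value stood for 2 to 6 steps, so no count model was fitted, and the step served for depth, reads per row, expected reads and counting error. Arms with a mean of at least 10 (474 of 513) were tested with limma 3.58.1 in R 4.3.3 on log2(value + 1), with a mean-variance trend, Benjamini-Hochberg adjustment over all 474 and a threshold of 0.05. The fit was tested on simulated data. Shares and ratios were compared with exact permutation tests over 924 assignments (smallest p 0.00216), and correlations with 100000 permutations (Python 3.11.15, scipy 1.17.1). Ratios of 3p to 5p used summed 5p rows, since the 3p row is shared. No 2 libraries of a lineage agreed within sampling noise. Named rows are the 5 members, the 8 rows most like the Mir-199 profile and fixed marker families. Members and lists were chosen with earlier results of these data known. The labels number the mice, and p-values measure the spread between these libraries.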

Additional observations from a re-analysis of the deposited data

Results flagged for a closer look

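The log2 ratio of Mir-199 3p to the summed Mir-199 5p rows in exercised replicate 1, 1.60, stood apart from the other 5 exercised-lineage mice, which lay between 0.60 and 0.95. The gap to its neighbour was 0.647 of the range, where the 95% limit of Dixon's test for 6 values is 0.625. It was the 1 value past that limit among 24 groups of 6 examined, where chance alone would give about 1.2. The library had the lowest Mir-199-P3 5p value of the exercised lineage, 22.2 normalized counts, and was listed at 0 for Mir-214 5p.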

How the results depend on the processing

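No arm was called by limma in any of the 25 alternatives run. With 1 library left out, the log2 difference ran from -0.08 to 0.09 for Mir-199 3p, from -0.11 to 0.14 for Mir-199-P1/P2 5p and from -0.82 to 0.09 for Mir-214 3p. That of Mir-214 5p ran from -3.22 to -2.12. The lineage difference of the summed share ran from -0.000294 to 0.000996 percentage points. For the log2 ratio of Mir-199 3p to 5p the lineage difference ran from -0.12 to 0.08. It ran from -1.26 to -0.72 for the log2 ratio of Mir-214 to Mir-199, and from 1.30 to 3.23 for that of Mir-214 3p to 5p. Values given below for an arm, the share or a ratio are likewise lineage differences, exercised minus sedentary. Directions turned as follows. Without the R41 libraries, Mir-199 3p was at -0.08, Mir-199-P1/P2 5p at -0.30 and Mir-214 3p at 0.27. Without the S11 libraries, Mir-199 3p was at -0.18, Mir-199-P1/P2 5p at -0.02, the summed share at -0.000550 and the ratio of Mir-199 3p to 5p at -0.13. That ratio was -0.19 without the R31 libraries, and Mir-214 3p was at 0.09 with values of 0 as missing. Other values moved by over 1.5 times without turning. Without the R31 libraries, Mir-214 3p was at -1.38, Mir-214 5p at -1.74, the ratio of Mir-214 3p to 5p at 0.36 and that of Mir-199-P1/P2 to P3 5p at 0.57. Without the R41 libraries those ratios were 3.82 and 0.03. The summed share differed by 0.00232 percentage points without the libraries with a value of 0, and by 0.00145 without the S41 libraries. Apart from the values of 0, which the fit then drops, the cause was not tested. Mouse numbers did not pair the libraries (correlations of same-numbered mice -0.17 to 0.15, with 2 of 12 libraries closest to their own number). With mouse number as a replicate block, 0 arms were called, Mir-214 5p stayed at -2.64 (limma adjusted p = 0.720), and the ratio of Mir-214 to Mir-199 at -1.06 had an exact permutation p of 0.0625. The planned edgeR, DESeq2 and TMM alternatives were not run, since whole reads could not be taken from the lowest values. Under a minimum mean of 100 only Mir-199 3p and Mir-199-P1/P2 5p were tested. The Mir-214 rows and Mir-199-P3 5p stood for no more than 56 reads per library, which limits their precision. The source of the values of 0 was not tested.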
